A study of Mus musculus with 10 samples.

Results

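The carbonic anhydrases described here are 10 genes, *Car2*, *Car3*, *Car4*, *Car7*, *Car8*, *Car9*, *Car10*, *Car11*, *Car12* and *Car14*, taken by their symbols from the 24302 genes of the deposited tables. All 10 were found in both tables, and 6 further carbonic anhydrase genes of the tables (*Car1*, *Car5a*, *Car5b*, *Car6*, *Car13* and *Car15*) served for comparison. RNA was sequenced from whole C57BL/6 mouse embryos at embryonic day 11.5 (E11.5). There were 3 wildtype embryos, 3 heterozygous for the *Wwc2* deletion (WWC2-/+) and 4 homozygous for it (WWC2-/-). In the deletion line a *Zp3* promoter, active in growing oocytes, drove the Cre recombinase that removed *Wwc2*, a gene of the Hippo pathway. The only values used are 1 mean per gene over the 10 embryos. A wildtype, a heterozygous and a homozygous level could thus not be told apart, the spread between embryos is unknown, and no genotypes are compared. For the same reason the loss of *Wwc2* itself was not checked here by genotype, while the paper reports by Western blot that homozygous embryos of this stage lack the WWC2 protein. The mean also averages over all tissues, so many cells with little RNA and few cells with much cannot be distinguished.

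Carbonic anhydrases convert carbon dioxide and water into bicarbonate and a proton and back again, and in the classical enzymes a zinc ion held by histidines does the chemistry. The isoforms differ in where they work. *Car2* encodes the fast cytosolic enzyme known from red blood cells, osteoclasts and glia, *Car3* a slow cytosolic enzyme of muscle and fat, and *Car7* a cytosolic enzyme of neurons. *Car4* is anchored to the outer face of the plasma membrane by a lipid, while *Car9*, *Car12* and *Car14* span it and have their catalytic domain outside. *Car9* is a well known target of hypoxia-inducible factor. *Car8*, *Car10* and *Car11* are carbonic anhydrase related proteins, of which the first is cytosolic, abundant in Purkinje cells and binds the inositol trisphosphate receptor, and the other two are secreted and bind neurexins at synapses.

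The zinc site separates the secreted related proteins from the enzymes in the reference sequence. The coding sequences below come from GENCODE release M21 (GRCm38), run 5′ to 3′ on the coding strand and start 3 codons before the first of the 3 zinc-binding histidine codons of *Car2* and end 3 codons after the last, with the intron between them left out. They are shown because they tell which of these 9 transcripts encode a complete zinc site, and the capitals mark the codons aligned with those 3 positions.

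*Car2*: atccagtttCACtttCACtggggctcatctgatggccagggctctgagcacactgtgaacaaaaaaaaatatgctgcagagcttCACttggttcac
*Car3*: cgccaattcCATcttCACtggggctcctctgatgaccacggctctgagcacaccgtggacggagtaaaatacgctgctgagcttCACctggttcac
*Car7*: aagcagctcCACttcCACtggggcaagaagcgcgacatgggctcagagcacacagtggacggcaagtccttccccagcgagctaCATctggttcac
*Car4*: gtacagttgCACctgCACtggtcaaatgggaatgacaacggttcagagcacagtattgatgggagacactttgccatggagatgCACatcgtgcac
*Car9*: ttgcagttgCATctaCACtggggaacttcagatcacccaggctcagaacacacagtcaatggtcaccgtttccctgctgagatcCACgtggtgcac
*Car12*: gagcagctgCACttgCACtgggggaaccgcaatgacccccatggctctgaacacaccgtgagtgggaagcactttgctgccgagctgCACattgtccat
*Car14*: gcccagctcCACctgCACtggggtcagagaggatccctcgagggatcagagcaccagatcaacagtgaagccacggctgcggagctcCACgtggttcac
*Car10*: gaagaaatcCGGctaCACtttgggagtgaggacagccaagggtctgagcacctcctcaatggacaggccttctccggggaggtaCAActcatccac
*Car11*: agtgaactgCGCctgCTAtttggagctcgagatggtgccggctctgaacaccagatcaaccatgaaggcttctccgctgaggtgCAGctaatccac

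Histidine is encoded by CAC or CAT, and 7 of the 9 members shown had one of these codons at all 3 positions. They are *Car2*, *Car3* and *Car7* in the cytosol and *Car4*, *Car9*, *Car12* and *Car14* at the membrane. In *Car10* the capitals read CGG, CAC and CAA, which leaves 1 histidine codon. *Car11* had 0, with CGC, CTA and CAG. In *Car2* these are codons 94, 96 and 119, counted from 1 at the start codon, and the window lies in exons 3 and 4 of 7 (chr3:14895060-14895549, plus strand). The window of *Car10* lies in exons 5 and 6 of 10 on chromosome 11 and that of *Car11* in exons 4 and 5 of 9 on chromosome 7. In each of the 9 genes the window crosses 1 exon junction.

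*Car2* was by far the most abundant member. Its mean normalized count, which is the read count of a gene after division by the size factor of each library, averaged over the embryos, was 4057. The gene (ENSMUSG00000027562) occupies 14.5 kb of chromosome 3 (14886273 to 14900770, plus strand). Reads from a long transcript outnumber those from a short one at equal abundance, so members are compared below per kilobase of the union of their annotated exons. On that scale the level of *Car2* was 1675, which is 6.65 times that of the next member, *Car14*, and 21.4 times that of the median gene (78.4). *Car2* held 66.9% of the summed levels of the 10 members on this scale, and 65.8% without correction for length. The other cytosolic enzymes were far lower. *Car3* (ENSMUSG00000027559, chromosome 3, 14863512 to 14872523, plus strand) had a mean normalized count of 187. Its level of 65.1 per kilobase was below that of the median gene. *Car7* (ENSMUSG00000031883, chromosome 8, 104534689 to 104550343, plus strand) had a mean normalized count of 26.0. Its level of 7.14 per kilobase was the lowest of the 10 members, and 25.3% of the genes with a mean above 0 were lower still. *Car2* exceeded *Car3* by 25.7 times per kilobase, although their proteins share 56.9% of aligned residues.

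Of the membrane-bound enzymes, *Car14* and *Car4* followed *Car2* in the order of the members, while *Car9* and *Car12* lay lower. *Car14* (ENSMUSG00000038526, chromosome 3, 95897768 to 95904691, minus strand) had a mean normalized count of 641, or 252 per kilobase. *Car4* (ENSMUSG00000000805, chromosome 11, 84957786 to 84966044, plus strand) had one of 424, or 216 per kilobase, so that both exceeded the median gene. The ratio of the first to the second was only 1.17 per kilobase. Without a spread over embryos it cannot be said whether these neighbors differ. *Car9* (ENSMUSG00000028463, chromosome 4, 43506966 to 43513729, plus strand) had a mean normalized count of 170 and *Car12* (ENSMUSG00000032373, chromosome 9, 66713686 to 66766845, plus strand) one of 187. Per kilobase, *Car9* stood at 73.7, just below the median gene, and *Car12* at 24.6. The exons of *Car12* add up to 7.60 kb and those of *Car9* to 2.30 kb, which turns their order around. Per kilobase of coding sequence *Car12* was again the higher, with 176 against 129. The extent of *Car9* is overlapped over 1782 bases by *Gm12454*, an antisense gene not analysed here. That of *Car14* overlaps over 521 bases with *Aph1a*, a subunit of gamma-secretase on the other strand whose mean normalized count was 922. The methods name a directional library kit and the sample labels a kit without that word. Whether reads in these overlaps were assigned by strand was therefore not settled.

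**Figure D1:**
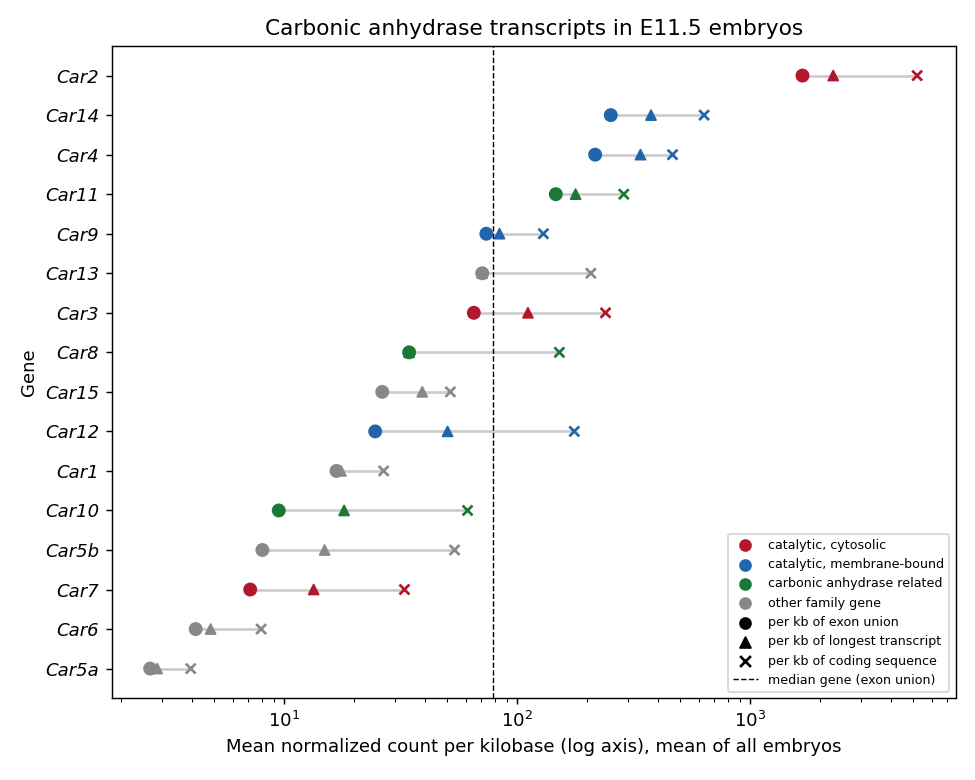
Mean normalized count per kilobase (x axis, log scale) of the 10 listed carbonic anhydrases, colored by class, and of the 6 other family genes in gray (y axis), each 1 mean over the embryos with no error available. Circles use the union of exons, triangles the longest transcript and crosses the coding sequence. *Car2* lies highest with each length (1675, 2269 and 5202), and the dashed line marks the median gene at 78.4.

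Of the related proteins, *Car11* was the most abundant. Its gene (ENSMUSG00000003273) lies on chromosome 7 (45699843 to 45704682, plus strand). Its mean normalized count was 282, and its level of 146 per kilobase was above 61.1% of the genes with a mean above 0. *Car8* (ENSMUSG00000041261, chromosome 4, 8143362 to 8239041, minus strand) had a mean normalized count of 132, or 34.4 per kilobase. Its extent holds the processed pseudogene *Gm11799* (460 bases, same strand). *Car10* (ENSMUSG00000056158) had a mean normalized count of 60.2, or 9.47 per kilobase, and its gene is the longest of the family, with 504 kb on chromosome 11 (93098028 to 93601749, plus strand). The secreted pair thus differed by 15.5 times per kilobase, although their proteins share 56.7% of aligned residues. Together the 3 related proteins took 7.60% of the members' summed levels per kilobase, the 4 membrane-bound enzymes 22.6% and the 3 cytosolic enzymes 69.8%, nearly all of it from *Car2*. The known partners of these proteins were also measured. *Itpr1*, the inositol trisphosphate receptor that *Car8* binds, had a mean normalized count of 1465 and a level of 79.97 per kilobase. The neurexins *Nrxn2* and *Nrxn3* stood at 83.4 and 20.5 per kilobase. *Car11* therefore lay above, and *Car10* below, both of these genes on this scale.

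All 10 members had a mean normalized count of at least 10, as did 15909 of all 24302 genes. Of the 10, 3 (*Car2*, *Car14* and *Car4*) exceeded the median mean normalized count of the genes with a mean above 0, which was 307 without correction for length. This count depends on the genes taken for the median, being 8 when genes at 0 are included and 1 against genes with a mean of at least 10. The median of the 10 members was 187. Per kilobase, 4 of the 10 exceeded the median gene, *Car11* in addition, and the range from *Car7* to *Car2* was 235-fold. The order per kilobase was *Car2*, *Car14*, *Car4*, *Car11*, *Car9*, *Car3*, *Car8*, *Car12*, *Car10* and *Car7*. The first 4 and the last 2 places were the same when the longest transcript or the coding sequence replaced the exon union. The places between them were not: with the longest transcript 2 of the 45 pairs of members changed order (*Car3* with *Car9*, *Car8* with *Car12*). With the coding sequence 4 pairs did, and *Car9* moved from place 5 to place 8. The embryos were not separable here, so these are orders of means without a test.

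**Figure D2:**
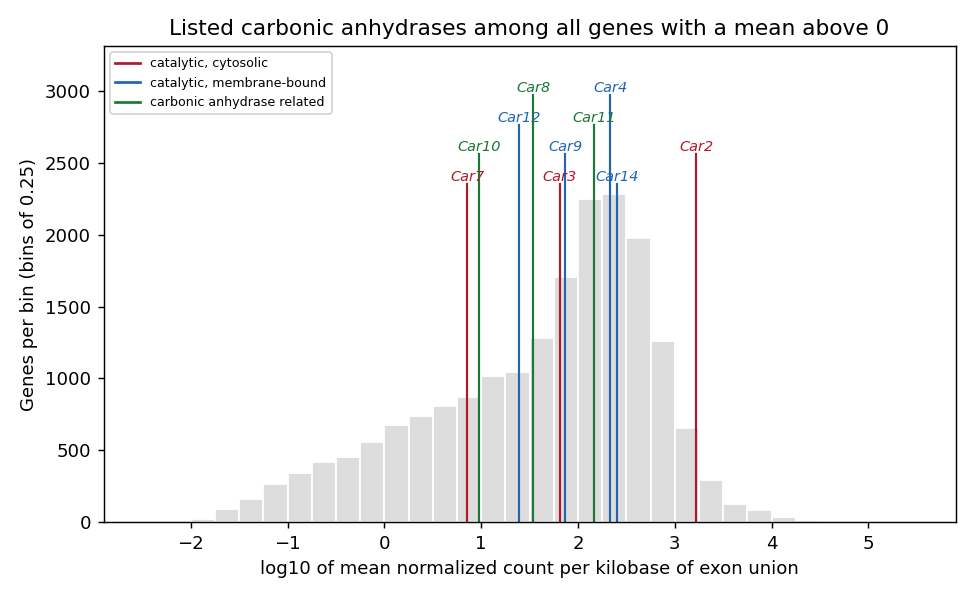
Number of genes (y axis, bins of 0.25) by the log10 of their mean normalized count per kilobase of exon union (x axis), for the 19448 genes with a mean above 0 and an annotated length, with a colored line for each listed member. *Car2* is in the upper tail, above 96.9% of these genes, while *Car10* and *Car7* lie above 27.4% and 25.3%.

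*Car2* and *Car3* lie in a cluster of 4 carbonic anhydrase genes on chromosome 3. The cluster runs from 14641727 to 14900770 (GRCm38), a span of 259 kb in the order *Car13*, *Car1*, *Car3* and *Car2*. No other protein-coding gene is annotated in it. *Car1* is on the minus strand and the others are on the plus strand. *Car3* and *Car2* are separated by 13.7 kb. The level per kilobase was 70.8 for *Car13*, a cytosolic enzyme, 16.8 for *Car1*, the cytosolic enzyme typical of adult red cells, 65.1 for *Car3* and 1675 for *Car2*. *Car2* thus exceeded *Car1* by 99.98 times and *Car13* by 23.7 times. The remaining members are dispersed over chromosomes 3, 4, 7, 8, 9 and 11.

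**Figure D3:**
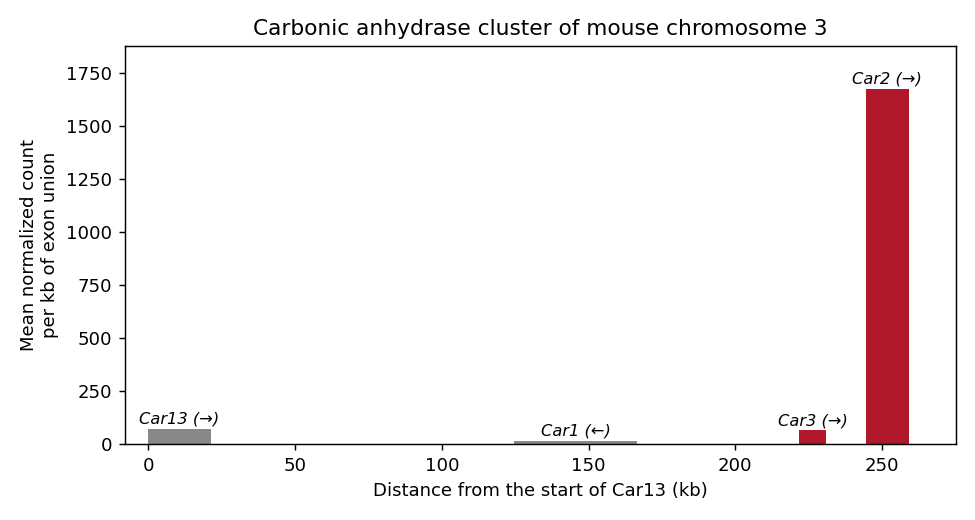
Mean normalized count per kilobase of exon union (bar height, y axis) of the 4 genes of the cluster on chromosome 3, drawn at their distance from the start of *Car13* (x axis, kb; bar width is the gene's extent, arrows the strand). *Car2* at the right end stands at 1675 and the other 3 genes between 16.8 and 70.8.

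Each of the other 6 family genes lay below the median gene per kilobase, and *Car6* and *Car5a* also lay below *Car7*, the lowest of the listed members. *Car13* was the highest of the 6 with 70.8, below the 78.4 of the median gene. *Car15*, a membrane-anchored enzyme, stood at 26.3 and *Car1* at 16.8. *Car5b*, the more widely expressed of the mitochondrial enzymes, stood at 8.06 and the secreted salivary isoform *Car6* at 4.17. *Car5a*, the mitochondrial enzyme of liver, was the lowest with 2.66 per kilobase, from a mean normalized count of 3.56. *Car15* is overlapped over 3088 bases by the annotated gene *Gm20518* on the same strand, so its value is uncertain. *Car5a* is overlapped over its whole extent of 28779 bases by *Gm20388*, a protein-coding gene on the opposite strand. Whether reads there were assigned by strand was not settled, so the value of *Car5a* and its lowest place are uncertain too. With these 6 genes included, *Car2* held 62.8% of the family's mean normalized counts, and the whole family accounted for 0.0253% of all mean normalized counts. The receptor phosphatases *Ptprg* and *Ptprz1*, which carry a carbonic anhydrase-like domain outside the cell, stood at 281 and 78.5 per kilobase.

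Carbonic anhydrases work together with transporters that move bicarbonate and acid across the membrane. Of 15 such genes, 13 had a mean normalized count of at least 10, as did 15909 of all 24302 genes. The median of the 15 was 598 without correction for length. Per kilobase it was 46.0, below the median of 69.4 of the 10 carbonic anhydrases. *Slc4a1*, the anion exchanger of red cells that trades chloride for the bicarbonate formed by *Car2*, was the highest with 7346. Its level per kilobase was 1502, against 1675 for *Car2*. *Slc9a3*, a sodium-proton exchanger of kidney and gut, was the lowest with 3.20. The lactate and proton carriers *Slc16a1* and *Slc16a3* stood at 601 and 753 per kilobase, above each of the 4 membrane-bound carbonic anhydrases (24.6 to 252). These carriers were the highest of the 15 per kilobase after *Slc4a1*, so they do not stand for the whole list.

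The most similar pairs of proteins, *Car2* with *Car3* and *Car10* with *Car11*, were not neighbors in the order per kilobase. The proteins were translated from the principal coding transcript of each gene and have between 260 residues (*Car2* and *Car3*) and 437 residues (*Car9*). Among the 45 pairs of members, identity over aligned residues lay between 25.7% (*Car4* and *Car10*) and 56.9% (*Car2* and *Car3*), with a median of 36.0%. With BLOSUM80 the highest pair was *Car10* and *Car11* (60.5%, against 58.1% for *Car2* and *Car3*) and the lowest *Car4* and *Car11* (37.4%). A total of 11 pairs reached 40% with the BLOSUM62 matrix used for these values, and 37 with BLOSUM80 at the same gap penalties. The cytosolic enzymes were close to each other, with 55.0% for *Car2* and *Car7* and 51.5% for *Car3* and *Car7*. *Car8* shared 44.9% with *Car7*, 43.3% with *Car2* and 38.6% with *Car3*, against 33.0% with *Car10* and 34.3% with *Car11*. With BLOSUM80 its values were 49.6%, 47.7% and 51.6% for the cytosolic enzymes and 40.8% and 41.2% for the secreted pair, so that the order among the cytosolic enzymes changed with the matrix. *Car14* shared 43.0% with each of *Car9* and *Car12*. *Car9*, *Car12* and *Car14* also had the most hydrophobic stretches. The highest mean hydropathy (Kyte-Doolittle scale) over 19 residues, leaving out windows that start in the first 40, was 2.74, 2.79 and 2.58. These stretches ended 28, 32 and 26 residues before the end of the protein. *Car4* had 1.86, ending 4 residues before the end, and the other 6 members lay between 0.858 and 1.34.

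**Figure D4:**
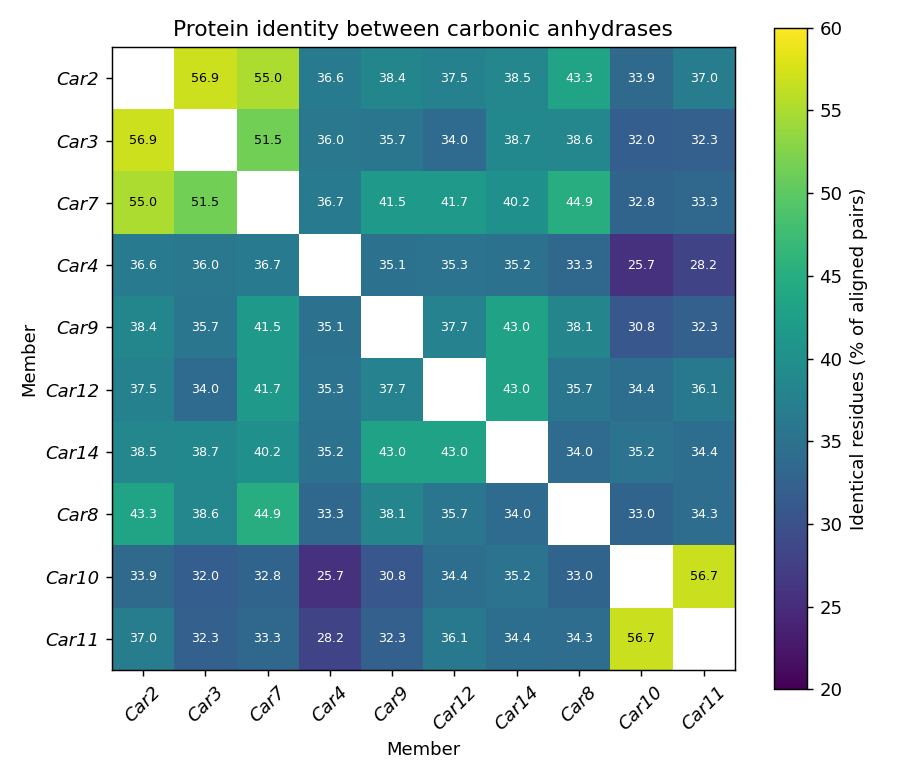
Percentage of identical residues among aligned pairs (color and number) for each pair of the 10 members (both axes), from global alignment of the translated reference sequences with BLOSUM62. With this matrix the highest values are those of *Car2* and *Car3* (56.9%), *Car10* and *Car11* (56.7%) and *Car2* and *Car7* (55.0%), and the lowest is that of *Car4* and *Car10* (25.7%).

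Markers of the tissues in which these isoforms are known were looked up in the libraries. The threshold used, a mean normalized count of at least 10, was reached by 15909 of all 24302 genes. Passing it therefore says little by itself about a tissue. Embryonic red cell markers were led by *Hbb-y*, a beta-like globin, with a mean normalized count of 136056, and 8 of the 9 genes found had at least 10. *Hba-a1*, which has a near-identical copy in the genome, was listed at 0. All 9 neuronal markers, 10 hypoxia-induced genes, 5 liver, 6 muscle and 4 epithelial markers had a mean of at least 10, with *Tubb3* at 10914, *Ldha* at 39772 and *Afp* at 24242. So did all 6 markers of trophoblast, a tissue of the placenta and not of the embryo proper, from 11.0 for *Gcm1* to 6932 for *Tpbpa*. The paper lists *Tpbpa* and *Psg21*, another of these markers, among the genes most upregulated in homozygous embryos. The means of the trophoblast markers thus need not hold for each genotype. What each of these tissues contributed to the level of a carbonic anhydrase was not tested. In these means over all genotypes, *Car9* stood below each of the 10 hypoxia-induced genes per kilobase, the lowest of which was *Ankrd37* with 286.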

How the data were processed

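RNA of 10 whole E11.5 embryos was sequenced by the authors after poly(A) selection. Per the labels and the methods, reads were trimmed with Trimmomatic 0.33, aligned to mm10 with HISAT2, counted per gene with HTSeq and analyzed with DESeq2. Both deposited tables hold a mean signal per gene, the normalized count averaged over libraries by the authors, in 1 table with a decimal comma. The deposited tables also hold other columns, namely the fold changes, standard errors, statistics and p-values of the authors' comparisons with wildtype embryos, which were not used here. The means agreed between the tables for all 24302 genes to within 1e-06 of the value, so both come from one set of libraries, taken to be the 10 embryos. They summed to 2.56e+07. Depth per embryo is unknown, and no interval or test was computed. Because only 1 mean per gene was used, no replicates enter any value.

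Gene lengths and coordinates came from GENCODE release M21 (GRCm38, the assembly of mm10), which held 22785 of the 22835 Ensembl identifiers of the table. Means were divided by the union of annotated exons in kilobases. Coding sequences of the principal transcripts with a consensus coding sequence were translated and aligned pairwise with Biopython 1.88 (global, BLOSUM62, gap opening 10, gap extension 0.5, free end gaps). The steps were tested on simulated data. The longest transcript, the coding length, other thresholds, BLOSUM80 and MAFFT 7.526 were tried as alternatives. Named genes were the 10 members, the other family genes, and the highest, lowest or directly interacting genes of fixed lists of transporters and binding partners. Further genes of these lists and of the tissue markers were named after their values were seen. The members and lists were chosen with earlier results of these data known. Some items are not reported here.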

Additional observations from a re-analysis of the deposited data

How the results depend on the processing

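The mean normalized counts of all 10 members were the same in both tables. Per kilobase, the median of the members was 69.4 with the exon union, 97.5 with the longest transcript and 207 with the coding length, since shorter lengths raise each value. *Car12* changed most, by 7.15 times with the coding length. The number of members above the median gene was 3 of 10 against genes with a mean above 0, 8 when genes at 0 were included, and 1 against genes with a mean of at least 10. It was 4 per kilobase. All 10 members had a mean of at least 1, and 8 one of at least 100. These counts say little about the members by themselves, since many other genes reach the same thresholds. A mean of at least 10 was already held by 15909 of the 24302 genes. The lowest of the 8 members, *Car8*, ranked 12133 among all genes by its mean, and the next member, *Car10*, ranked 13386. *Car2* held 65.8% of the counts of the members, 62.8% of the counts of all family genes and 66.9% per kilobase. The pairs with at least 40% identity were 11 with BLOSUM62, 8 over the residues of the shorter protein and 37 with BLOSUM80 at the same gap penalties, where the median number of aligned residue pairs fell from 259 to 243. The exact identities thus depend on the alignment. Histidine codons at all 3 zinc positions were found in the 7 catalytic members with each alignment. No paired analysis was possible because no value per embryo was used. Without values per embryo, leaving out single embryos was not possible either.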
